A study of Mus musculus with 4 samples.

Results

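The calcium, calcineurin, NFAT and CaM kinase genes of double-negative regulatory T cells (DNT) were described here by their RPKM values (read numbers divided by the length of the transcript and by the depth of the library) in each library. DNT lack both CD4 and CD8, carry an αβ T cell receptor and can dampen responses of other immune cells. The set held 10 of the 35275 genes in the deposited table: Stim1, Ppp3ca, Rcan1, Nfatc1, Nfatc2, Nfatc3, Camk2b, Camk2d, Camk2g and Camk4. It was chosen by the RPKM values of Camk2b, which differed between the genotypes, and the other 9 genes were added as its paralogues and as parts of the same pathway. The Camk2b contrast is therefore given as a description with no test. The groups were 2 libraries of wild-type C57BL/6 DNT and 2 of DNT from OX40-knockout mice on the same strain, named here by group and by the number in the labels. In both groups naive CD4 T cells had been converted to DNT and then sorted as CD3+TCRαβ+NK-CD4-CD8-. OX40, encoded by Tnfrsf4, is a costimulatory receptor of activated T cells. The labels give neither the age of the mice nor a statement that a group's 2 libraries had separate animals or cultures as their source. A p-value here thus measures the spread between libraries alone, which may be technical.

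In T cells, antigen receptor signals empty the calcium store of the endoplasmic reticulum. STIM proteins sense the empty store and open ORAI channels in the cell membrane, and the calcium that enters binds calmodulin. Calmodulin switches on 2 arms. In the first, the phosphatase calcineurin removes phosphates from NFAT transcription factors, which move to the nucleus and act on cytokine and feedback genes. In the other, calcium/calmodulin-dependent (CaM) kinases are activated, among them CaM kinase II, a large ring-shaped enzyme built from the products of Camk2a, Camk2b, Camk2d and Camk2g. Camk2a and Camk2b are best known from brain, and Camk2d and Camk2g are expressed in many tissues.

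The library totals lay between 22220888 and 24395743 reads. The CD3 and T cell receptor constant genes checked (Cd3d, Cd3e, Cd3g, Cd247, Trac, Trbc1 and Trbc2) stood together between 2150 and 2460 RPKM per library. Cd4 reached 10.1 RPKM in OX40-knockout 1, while the remaining 3 libraries lay between 0.82 and 2.06 RPKM. Cd8a, between 9.03 and 16.56 RPKM, was above Cd4 in every library. Cd8b1 lay between 2 and 4.44 RPKM, and both were highest in OX40-knockout 1. That library stood apart more widely: of the 11625 genes tested, 578 differed by 2-fold or more (in RPKM + 1) between both knockout libraries, 132 between both wild-type libraries. Across the groups, 289 did so for the libraries numbered 1 and 58 for those numbered 2. Summed markers of NK cells divided by library number. They were at 130 RPKM in wild-type 1 and 63 RPKM in OX40-knockout 1, against 209 and 204 RPKM in wild-type 2 and OX40-knockout 2. Within that sum Ncr1 was at 0.408 and 0.183 against 7.93 and 7.49 RPKM in the same order. The 6 erythroid and platelet markers summed to 4.2 and 7.39 against 27.9 and 16.5 RPKM. The cause of this division was not tested. The 9 markers of dendritic and myeloid cells summed to between 78.2 and 172 RPKM and were highest in OX40-knockout 1 through H2-Ab1 alone, at 163 RPKM. The other 8 summed to between 8.69 and 21.5 RPKM and were lowest there, and Flt3 was at 0.0315 RPKM or less in all 4 libraries. Their part in the results below was not tested. All 5 neuron markers were below a mean of 1 RPKM, with a sum of 0.792 RPKM or less in every library. Tnfrsf4 itself was read at 18.2 and 12.3 RPKM in wild-type DNT, against 12.1 and 9.38 RPKM in OX40-knockout DNT. Which exons the knockout removes is not in the labels, so these values check the genotypes little.

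CaM kinase II holds itself inactive with an autoregulatory segment. Calmodulin binding uncovers a threonine in that segment, and once the threonine is phosphorylated the kinase stays partly active after calcium has gone. The coding sequence of this segment is shown for the 3 paralogues expressed in DNT, because it shows how far the genes differ where their proteins do the same work. Each line is 90 bases from the sense strand of a GENCODE vM21 transcript (GRCm38), 5′ to 3′, and the capitals mark the codon of that threonine, at residue 287 in Camk2b and Camk2d and at residue 285 in the longest annotated protein of Camk2g.
Camk2b: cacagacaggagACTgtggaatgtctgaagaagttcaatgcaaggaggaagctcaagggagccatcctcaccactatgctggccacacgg
Camk2d: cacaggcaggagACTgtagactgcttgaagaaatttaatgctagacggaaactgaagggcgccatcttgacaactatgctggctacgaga
Camk2g: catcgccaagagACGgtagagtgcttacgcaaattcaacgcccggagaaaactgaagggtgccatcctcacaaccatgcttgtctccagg
Camk2b differed from Camk2d at 20 of these bases and from Camk2g at 28, and no run of more than 11 bases was shared between any pair. Over all annotated transcripts, 32 of the 9243 distinct 36-base words of Camk2b (0.346%) also occurred in another gene, and 2 of them in a paralogue. For Camk2d 15 of 22885 words were shared, none with a paralogue, and for Camk2g 0 of 6735. The length of the reads, the mismatches allowed and the handling of reads that fit several places were not given in the sources used here.

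Camk2b, which encodes the beta subunit of CaM kinase II, stood at 15.1 and 15.3 RPKM in wild-type 1 and 2 and at 5.58 and 4.21 RPKM in OX40-knockout 1 and 2. Both knockout libraries lay far below both wild-type libraries, which nearly coincided. These values came from 787, 842, 279 and 214 reads in the same order, and their exact 95% Poisson intervals, which cover counting error only, were 14 to 16.1, 14.3 to 16.4, 4.94 to 6.27 and 3.67 to 4.82 RPKM. The group means were 15.2 ± 0.193 and 4.89 ± 0.966 RPKM (SD, n = 2 each), a 3.11-fold lower level in the knockout. This gave a log2 change of -1.47 with a standard error of 0.17, on the log2(RPKM + 1) scale, which understates changes of low genes. Within the libraries numbered 1 the difference was -1.29, and within those numbered 2 it was -1.65. Of the 11625 genes tested, those averaging 1 RPKM or more, 0.129% had a larger absolute change, and 1.35% when OX40-knockout 2 was left out. Camk2b was chosen for this difference, so its rank describes the size of the change and is no test. In bulk RNA, fewer cells that carry a transcript and less of it per cell cannot be told apart.

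**Figure D1:**
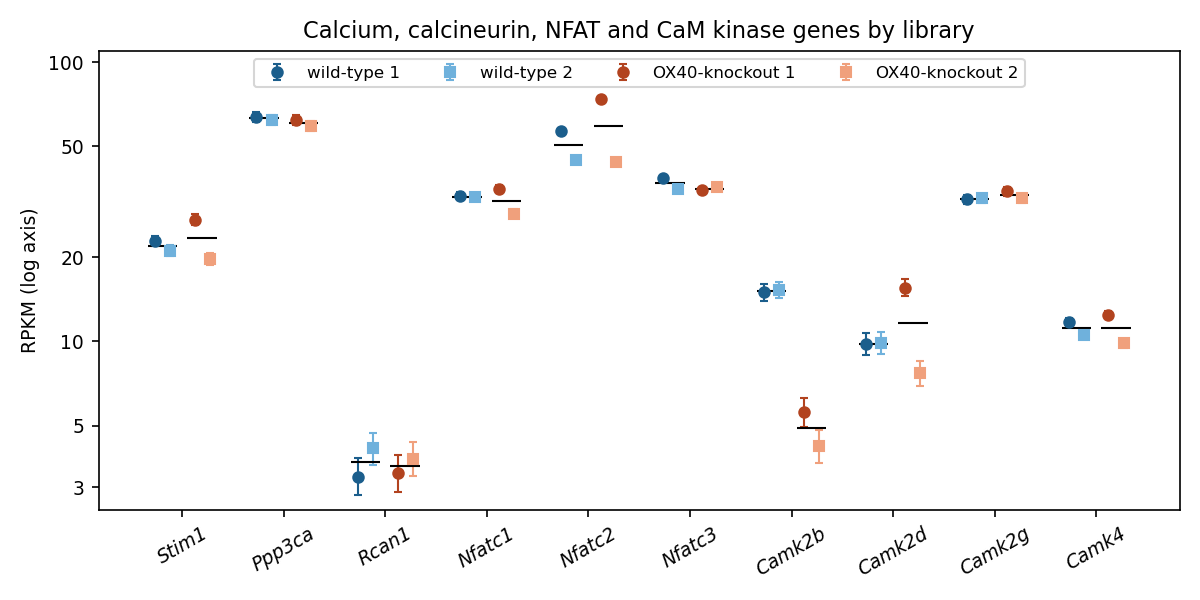
RPKM of the 10 genes (vertical, log axis). Each library is a point, with exact 95% Poisson intervals of the reads as error bars and a black bar at each group's mean (n = 2). Camk2b sits at 15.1 and 15.3 RPKM in wild-type DNT, against 5.58 and 4.21 RPKM in OX40-knockout DNT, while the groups of the other genes overlap or lie close together.

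The closest relatives of Camk2b did not show this separation. Camk2g, encoding the gamma subunit, was at 32.4 and 32.5 RPKM in wild-type DNT, against 34.6 and 32.6 RPKM in OX40-knockout DNT. The knockout libraries lay above the wild-type libraries by a margin that for OX40-knockout 2 was 0.002 on the log2 scale. Its log2 change was 0.05 (SE 0.10, 95% interval -0.23 to 0.32) with a limma adjusted p of 0.975 over all genes, so it was not called. The interval leaves room for a modest change in either direction.

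Camk2d, encoding the delta subunit, was at 9.78 and 9.87 RPKM in wild-type DNT, against 15.6 and 7.71 RPKM in OX40-knockout DNT. The wild-type libraries agreed closely and lay between the knockout libraries, which were 2.02-fold apart. On the log2 scale the difference was 0.15 (SE 0.32, 95% interval -0.70 to 1.00; limma adjusted p = 0.975), and it became -0.31 without OX40-knockout 1. Within replicate 1 the difference was 0.62 and within replicate 2 it was -0.32, so the direction was not shared between the numbers. Camk2a, the fourth CaM kinase II gene, was represented by 1, 2, 5 and 2 reads, at 0.11 RPKM or less.

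The make-up of CaM kinase II transcripts differed accordingly. Camk2b made up 26.3% and 26.5% of the summed RPKM of the 4 CaM kinase II genes in the wild-type libraries and 9.99% and 9.46% in the knockout libraries. The sum itself was 57.3, 57.8, 55.9 and 44.5 RPKM in the order wild-type 1, wild-type 2, OX40-knockout 1 and OX40-knockout 2. In OX40-knockout 1 the higher Camk2d and Camk2g values brought the sum close to the wild-type level. In OX40-knockout 2 Camk2d was below the wild-type libraries, at 7.71 RPKM, and Camk2g was close to them, at 32.6 RPKM. Without Camk2b the sum was 42.2 and 42.5 RPKM against 50.3 and 40.3 RPKM. The ratio of Camk2b to Camk2g, which cancels the scaling of each library, was 0.465 and 0.471 in the wild-type and 0.161 and 0.129 in the knockout libraries. Camk2g was the most abundant of the 4 in every library. Levels of different genes rest on the transcript lengths the authors used, which were recovered from the values as 2251 bases for Camk2b, 2109 for Camk2d and 3658 for Camk2g. The length of Camk2d may be a whole multiple of this figure, and its reads with it. That of Camk2g is well above the 1373 bases its annotated transcripts average.

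**Figure D2:**
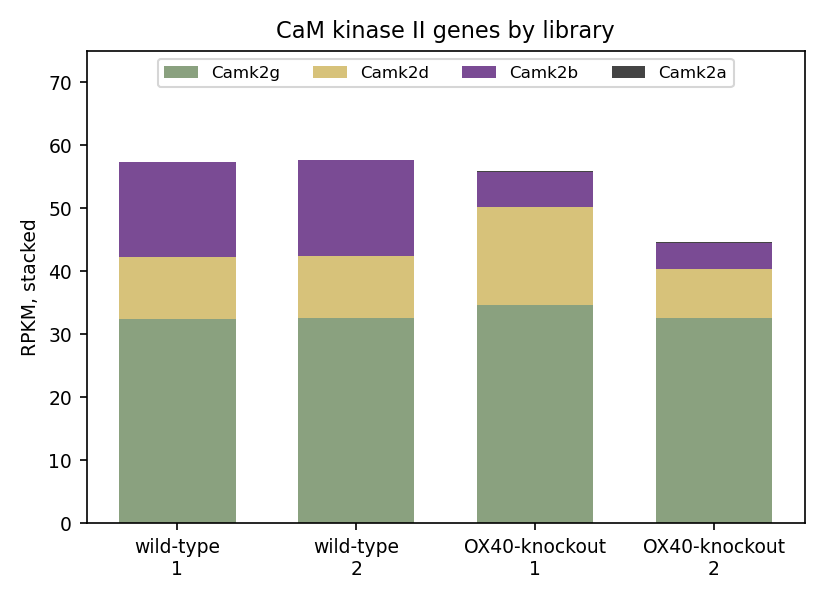
RPKM of Camk2g, Camk2d, Camk2b and Camk2a stacked for each of the 4 libraries, on an axis from 0. The Camk2b part shrinks from 15.1 and 15.3 RPKM in the wild-type to 5.58 and 4.21 RPKM in the knockout libraries, and Camk2d is widest in OX40-knockout 1.

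Genes outside the family were set beside Camk2b. Its nearest protein-coding neighbours on the chromosome, a choice made after the Camk2b values were seen, were Ykt6 and Nudcd3. Ykt6, a SNARE protein of vesicle fusion, was at 73 and 75.7 RPKM in wild-type DNT, against 83.9 and 76.4 RPKM in OX40-knockout DNT (log2 change 0.11, SE 0.11; limma adjusted p = 0.975). Nudcd3, a co-chaperone, was at 19.7 and 19.1 against 21.5 and 18 RPKM (0.02, SE 0.13; limma adjusted p = 0.988). The low Camk2b level was thus not shared by the genes on either side.

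The profile of Camk2b over the 4 libraries was also compared with those of 8587 other named genes of at least 5 RPKM, by the Euclidean distance of log2(RPKM + 1) values centred on each gene's mean. The nearest was Wdfy1 (distance 0.25), at 46.4, 42.7, 16.2 and 15.9 RPKM in the order used above. Tulp4 (0.29) followed, at 96.8, 96.4, 47.3 and 37.5 RPKM, and then Dynlt1b (0.41), Traj9 (0.51) and Sdf4 (0.54). All 5 were lower in both knockout libraries, as the measure requires of genes close to Camk2b. Dynlt1b belongs to a family with near-identical copies, so its reads may be divided among them. With 4 libraries such likeness is a description only. The places of these genes on the chromosomes, relative to each other or to Tnfrsf4, were not compared, and the cause of the likeness was not tested.

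Camk4 encodes CaM kinase IV, which acts in the nucleus on CREB and related factors. It was at 11.7 and 10.6 RPKM in wild-type DNT, against 12.5 and 9.84 RPKM in OX40-knockout DNT, and the groups overlapped on both sides. The log2 change was -0.01 (SE 0.16, 95% interval -0.43 to 0.42; limma adjusted p = 0.995). Its sign was positive under each scaling and GC alternative tried. Read counts were 3358, 3185, 3414 and 2740. The length behind its RPKM values was 12331 bases, against a mean of 1735 bases for its transcripts in the annotation used here, and its level relative to other genes depends on which applies.

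The calcium sensor Stim1 stood at 22.9 and 21.1 RPKM in wild-type DNT, against 27.3 and 19.8 RPKM in OX40-knockout DNT. OX40-knockout 1 was the highest and OX40-knockout 2 the lowest of the 4. This gave a log2 change of 0.08 (SE 0.18, 95% interval -0.40 to 0.55; limma adjusted p = 0.975), and -0.15 without OX40-knockout 1. Its paralogue Stim2 was at 18 and 15.8 against 14.7 and 15.9 RPKM.

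Ppp3ca encodes the alpha form of the catalytic subunit of calcineurin. It was at 63.8 and 62.3 RPKM in wild-type DNT, against 62.2 and 59.3 RPKM in OX40-knockout DNT, the narrowest range but one of the 10 genes, with 1.08-fold between the highest and lowest library. Both knockout libraries were below both wild-type libraries, but OX40-knockout 1 and wild-type 2 differed by less than their counting intervals. On the log2 scale the difference was -0.05 (SE 0.10, 95% interval -0.31 to 0.21; limma adjusted p = 0.975), and it was 0.04 with the GC correction. The other catalytic genes Ppp3cb and Ppp3cc were more abundant, so Ppp3ca made up between 22.5% and 25.1% of the summed RPKM of the 3 genes in each library.

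Rcan1 encodes an inhibitor of calcineurin and is itself a feedback target of NFAT, since one of its forms starts at an internal promoter with NFAT sites. The RefSeq promoter table (GRCm38.p6) lists 2 starts for Rcan1. The more downstream one is shown because it holds 3 matches to GGAAA, the core that NFAT binds, counted on both strands, and the other holds none. It runs from 250 bases before to 50 after the start, at chr16:92400029-92400328 on the minus strand, and capitals mark the matches.
Rcan1: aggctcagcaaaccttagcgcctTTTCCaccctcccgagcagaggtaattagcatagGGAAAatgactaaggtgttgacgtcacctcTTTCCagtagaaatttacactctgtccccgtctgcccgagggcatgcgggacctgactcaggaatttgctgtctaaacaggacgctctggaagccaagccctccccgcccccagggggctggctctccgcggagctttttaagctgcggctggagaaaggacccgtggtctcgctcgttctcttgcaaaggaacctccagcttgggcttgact
Of all 32851 promoters in the table, 9.42% held at least 3 matches and 61.3% at least 1, so short matches of this kind are common and are not by themselves sites.

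Rcan1 was the lowest of the 10 genes, at 3.28 and 4.14 RPKM in wild-type DNT, against 3.37 and 3.81 RPKM in OX40-knockout DNT. The knockout values lay inside the wild-type range. With 172, 228, 169 and 194 reads, the counting intervals of the 4 libraries overlapped, from 2.81 to 3.81 RPKM in wild-type 1 and from 3.62 to 4.71 RPKM in wild-type 2. The log2 change was -0.03 (SE 0.18, 95% interval -0.50 to 0.43; limma adjusted p = 0.985). The RPKM value covers the whole gene and does not separate its starts. Rcan3, a related inhibitor, was higher per length, between 19.7 and 22.8 RPKM, and Rcan2 was listed at 0 in all 4 libraries.

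In none of the 3 expressed NFATC genes did the groups separate. Nfatc1, which encodes the NFAT protein whose short form builds up after activation, was at 33.1 and 32.9 RPKM in wild-type DNT, against 35.3 and 28.6 RPKM in OX40-knockout DNT. The wild-type libraries lay between the knockout libraries. This gave a log2 change of -0.05 (SE 0.14, 95% interval -0.41 to 0.31; limma adjusted p = 0.975) and 0.09 without OX40-knockout 2. Slc25a36, Plcb2, Tuft1 and Cd37 were among the genes whose profile was nearest to that of Nfatc1, at distances between 0.025 and 0.037.

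Nfatc2, the main NFAT of resting T cells, had the highest RPKM of the NFATC genes in every library. It stood at 56.5 and 44.8 RPKM in wild-type DNT, against 73.9 and 43.9 RPKM in OX40-knockout DNT. In both groups the library numbered 1 was the higher, and OX40-knockout 1 was the highest of the 4. On the log2 scale the difference was 0.18 (SE 0.28, 95% interval -0.55 to 0.90; limma adjusted p = 0.975), and it was -0.19 without OX40-knockout 1. Within replicate 1 the difference was 0.38 and within replicate 2 it was -0.03.

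Nfatc3, a further calcineurin-dependent NFAT, was at 38.6 and 35.3 RPKM in wild-type DNT, against 34.8 and 35.7 RPKM in OX40-knockout DNT. Wild-type 1 was the highest, and the other 3 lay within 1 RPKM of each other. The log2 change was -0.06 (SE 0.11, 95% interval -0.35 to 0.22; limma adjusted p = 0.975), and it was 0.04 with the GC correction. Exons of Nfatc3 overlap those of Esrp2 on the other strand, which was listed at 1.31 RPKM or less. Nfatc4 had at most 1 read in any library, and the summed NFATC level was 128 and 113 RPKM in wild-type DNT, against 144 and 108 RPKM in OX40-knockout DNT.

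Read together, none of the 9 genes other than Camk2b passed the limma threshold of 0.05, 4 of them being higher and 5 lower on average with a median log2 change of -0.01. Over all 11625 genes tested 5051 were higher and 6574 lower on average, with a median change of -0.03. Of these genes 0 passed (0%), the lowest limma adjusted p was 0.0963, and 162 had an unadjusted p under 0.05. None of the 9 was among those 162. By limma-voom on reads recovered from the values, 0 genes passed as well and 129 had an unadjusted p under 0.05. The knockout libraries were both below the wild-type libraries for 1 of the 9, Ppp3ca, where 17.8% of all genes tested were so, and both above for 1, Camk2g, where 8.66% were so. Counts of that size are near the background. Without OX40-knockout 1, 2 of the 9 were higher and 7 lower, with a median of -0.15, and 1 had an unadjusted p under 0.05. Over all genes tested that setting gave 4783 higher and 6842 lower, a median of -0.03 and 524 at an unadjusted p under 0.05. OX40-knockout 1 was the highest library for 6 of the 9, and for 36.9% of all genes tested. The 95% intervals of the 9 changes ranged from -0.70 to 1.00, so the data do not show that these genes were equal in the genotypes.

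**Figure D3:**
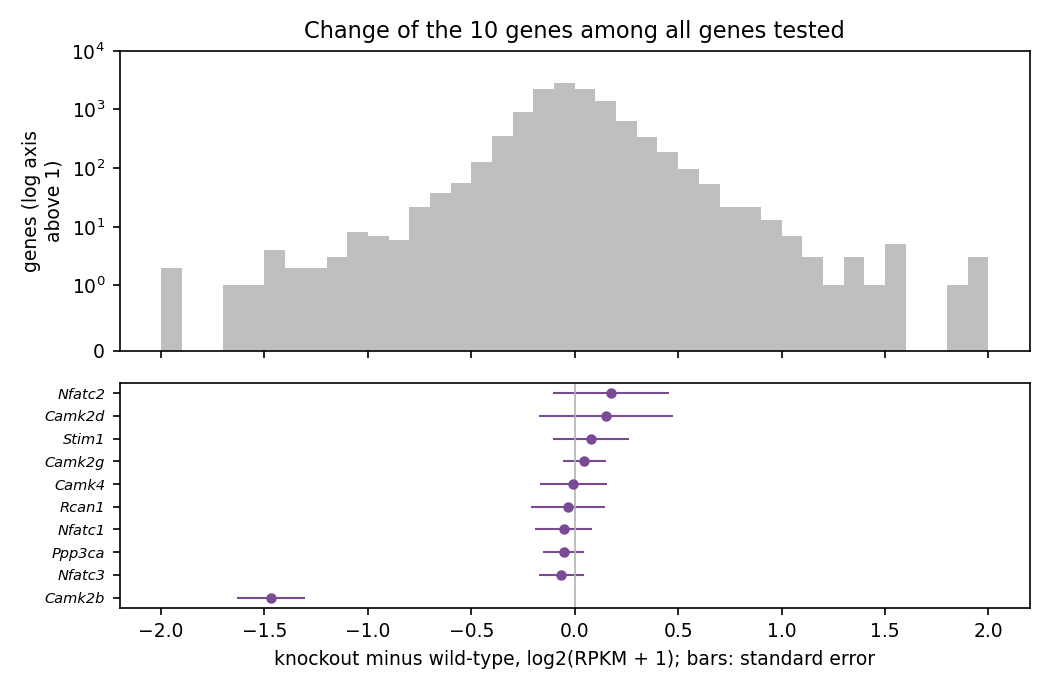
Upper panel, number of the 11625 genes tested in bins of 0.1 of the log2 change, on an axis that is logarithmic above 1, with values past 2 in either direction placed in the outermost bins. Lower panel, the change of each of the 10 genes with its standard error on the same horizontal axis: Camk2b lies at -1.47 and the other 9 between -0.06 and 0.18.

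Beyond these 10, 75 further genes of the pathway were read, of which 64 had a mean of at least 1 RPKM. None passed the limma threshold in either direction (lowest adjusted p = 0.975). By limma 4 of the 64 had an unadjusted p under 0.05, beside 162 of all 11625 genes tested. These 4 were Orai1, Ifng, Egr3 and Nr4a1, from lists that were chosen with earlier results of these data known. On average 42 were higher and 22 lower in the knockout libraries, with a median log2 change of 0.07. Over all genes tested 5051 were higher and 6574 lower. Both knockout libraries lay above both wild-type libraries for 12 of the 64 and below them for 6, beside 8.66% and 17.8% of all genes tested. Without OX40-knockout 1, 25 were higher and 39 lower with a median of -0.04, so the excess of higher genes rested on that library.

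Among the genes of calcium entry, stores and release, Orai1, the pore of the channel that STIM opens, was at 6.65 and 7.06 RPKM in wild-type DNT, against 13.3 and 8.84 RPKM in OX40-knockout DNT. Both knockout libraries were the higher, OX40-knockout 1 by far. This gave a log2 change of 0.60 (SE 0.22; limma adjusted p = 0.975) and 0.33 without OX40-knockout 1. Plcg1, the phospholipase that starts calcium release, spread widely, at 59 and 47.7 against 88.8 and 36.8 RPKM. It was chosen for mention after its values were seen. Of the 10 genes in this list 6 were higher and 4 lower on average, and 5 each without OX40-knockout 1. Among 7 calcium pumps and mitochondrial uptake genes 5 were higher and 2 lower, and 3 higher and 4 lower without that library. Atp2b4, a pump that drives calcium out through the cell membrane, read 54.2 and 47.4 RPKM in wild-type DNT, against 75.2 and 46.5 RPKM in OX40-knockout DNT, and was highest in OX40-knockout 1. Its log2 change was 0.22, and -0.12 without that library. Micu2, a gatekeeper of the mitochondrial calcium channel, was lowest in the same library (32.7 RPKM, against 39.6 to 40.7 RPKM in the others), and its log2 change of -0.16 was -0.02 without it.

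Calmodulin transcripts were abundant, with Calm2 and Calm3 each between 219 and 335 RPKM. Calm2 was at 286 and 283 against 219 and 271 RPKM (log2 change -0.22, SE 0.14; limma adjusted p = 0.975), and the change was -0.07 without OX40-knockout 1. All 3 measured subunits of calcineurin other than Ppp3ca were lower on average, by 0.04 to 0.16 on the log2 scale. Without OX40-knockout 1, 1 was higher and 2 lower. Of these Ppp3cb was at 94.1 and 93.1 against 77.7 and 89.9 RPKM, and its log2 change of -0.16 was -0.06 without that library. Of the 5 measured inhibitors, scaffolds and immunophilins of calcineurin 3 were higher and 2 lower, none by more than 0.12, and 1 was higher and 4 lower without it. Nfat5, an NFAT relative that does not need calcineurin, read 28.3 and 26.6 RPKM in wild-type DNT, against 23.2 and 25.5 RPKM in OX40-knockout DNT. Its groups did not overlap, and its log2 change was -0.17 (SE 0.115; limma adjusted p = 0.975), and -0.10 without OX40-knockout 1. The 6 NFAT kinases, which return NFAT to the cytoplasm, were all higher on average, by 0.01 to 0.16. Without OX40-knockout 1, 3 were higher and 3 lower.

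The next list held other CaM kinases, CaM kinase kinases and CaM kinase II inhibitors. Camkk1 encodes a kinase that activates CaM kinases I and IV. It was at 4.02 and 3.43 RPKM in wild-type DNT, against 10.4 and 4.07 RPKM in OX40-knockout DNT. Only OX40-knockout 1 stood clear of the rest, and the log2 change of 0.69 (SE 0.41; limma adjusted p = 0.975) was 0.10 without it. Camk2n1, which encodes an inhibitor of CaM kinase II, was at 8.93 and 10.5 against 6.83 and 9.32 RPKM (-0.25, SE 0.19; limma adjusted p = 0.975), and the change was -0.05 without that library. In the downstream group of MEF2, CREB, CRTC and class IIa HDAC genes, 7 of 10 were higher on average, and 2 of 10 without OX40-knockout 1. There Hdac7, a repressor that leaves the nucleus after phosphorylation, was at 53.3 and 54.4 against 97.9 and 62 RPKM, and Mef2a at 89.6 and 86.8 against 64.5 and 84.4 RPKM. Their log2 changes of 0.53 and -0.26 were 0.20 and -0.06 without that library.

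The last list held genes that NFAT is known to regulate in T cells. Of 13 measured, 11 were higher and 2 lower on average, with a median log2 change of 0.36, and none passed the limma threshold (lowest adjusted p = 0.975). Both knockout libraries were above both wild-type libraries for 5 of the 13, where 8.66% of all genes tested were so. These 5 were Ifng, Il2ra, Egr2, Egr3 and Nr4a1. Without OX40-knockout 1, 6 were higher and 7 lower, with a median of -0.02. Egr3, an early response factor, was at 3.41 and 3.01 RPKM in wild-type DNT, against 5.85 and 5.35 RPKM in OX40-knockout DNT, and its log2 change of 0.65 (SE 0.16; limma adjusted p = 0.975) was 0.60 without that library. In the other direction Fasl, a death ligand, was at 20.3 and 32.2 against 10.6 and 24.8 RPKM (-0.62, SE 0.44; limma adjusted p = 0.975), and the change was -0.04 without OX40-knockout 1. Il2, the classical NFAT target, had between 0 and 7 reads per library. The list was chosen with earlier results of these data known, and many of its genes also respond to other factors, so its counts are no measure of NFAT activity.

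**Figure D4:**
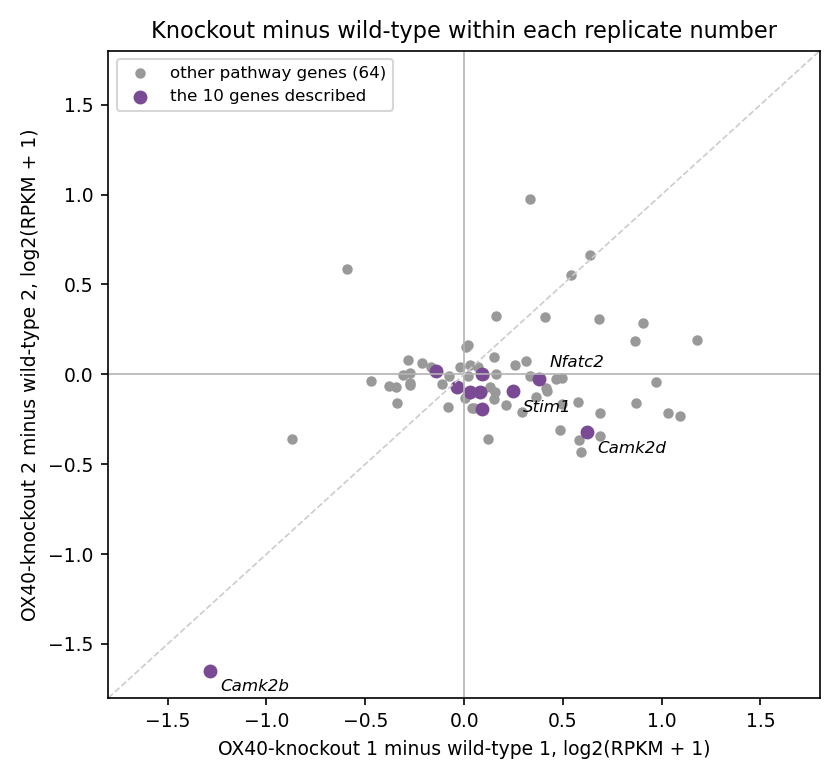
Knockout minus wild-type on the log2(RPKM + 1) scale in the libraries numbered 1 (horizontal) and in those numbered 2 (vertical), with 1 point per gene, the 10 genes in purple and 64 other pathway genes in grey. Camk2b lies at -1.29 and -1.65, near the dashed line of equal differences, while Camk2d lies at 0.62 and -0.32. The numbers are the labels' own and are not known to mark pairs.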

How the data were processed

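Bowtie 0.12.2 and the build mm8 are named in the submitters' processing notes. The counter, its annotation and its strand setting were not given in the sources used here. The authors deposited 1 table of RPKM values. Its header names no unit, which was settled from the values: in single-transcript genes the smallest values equal 1 read at the annotated length, which gives each library's total as a whole number. With these totals, a search over whole lengths (up to 30000 bases, tolerance 0.0002 read) gave whole reads for 20995 of the 20996 genes above 0. The smallest fitting length was multiplied by the whole number that brought it nearest to the mean annotated transcript length, so reads of some genes may be off by a whole factor, and their sum was 101.6% to 101.7% of the totals. Symbols, lengths, GC content and gene order came from GENCODE vM21 (GRCm38), which names 34490 of the IDs. Its build differs from the one in the notes, so no coordinates of the reads are given.

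limma 3.58.1 (R 4.3.3; empirical Bayes, mean-variance trend, no block) was fitted to log2(RPKM + 1) of all 4 libraries for genes averaging 1 RPKM or more, with Benjamini-Hochberg adjustment over all of them and a threshold of 0.05. An exact permutation test of 2 against 2 libraries cannot pass 0.05, so none was used. The named genes were, by rule, the 10 members, the gene of lowest p in each direction of each pathway list, and the 5 profiles nearest to Camk2b and to Nfatc1. Other paralogues, neighbours and pathway genes are named outside the rule, and were chosen after their values were seen. Some genes that the rule or lists hold are not reported here. The members and lists were chosen with earlier results of these data known. Preparation used Python 3.11.15, numpy 2.4.6 and pandas 2.3.3, and figures matplotlib 3.10.9.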

Additional observations from a re-analysis of the deposited data

How the results depend on the processing

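The count of genes other than Camk2b past the threshold was 0 in all 16 alternatives for the 9 genes of the set and for the further pathway genes. The filter at 5 RPKM left out Rcan1 among others, so that 8 and 56 were tested. Over all genes limma called 0, 1 with quantile normalization (Gm28438), and between 0 and 1 when a library was left out (Gm47283, without wild-type 2). With the replicate number as a block it called 5 (Wdfy1, Dynlt1b, Tmem181b-ps, Gm28438 and Gm47283), and with the GC correction and the replicate block the same 5. No label ties same-numbered libraries to each other, and deviations of the libraries numbered 1 from their group means correlated at 0.469 over genes. Without OX40-knockout 2, 35 of the 64 pathway genes had an unadjusted p under 0.05, against 4 with all libraries, while over all 11625 genes 3832 had one, against 162.

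The Camk2b change ranged from -1.30 without OX40-knockout 2 to -1.65 with limma-voom on recovered reads. Since Camk2b was chosen by these same values, its constant sign is a description and no support. Several small changes of the other genes took the opposite sign, without passing, and the cause was not tested. Camk4 was at 0.021, 0.022 and 0.011 with trimmed-mean, median-of-ratios and quantile scaling, at 0.02 with the GC correction with or without the block, at 0.06 without wild-type 1 and at 0.148 without OX40-knockout 2. With the GC correction, with or without the block, Ppp3ca was at 0.041 and Nfatc3 at 0.043. When each library was left out in turn, Stim1 ranged from -0.147 to 0.301, Rcan1 from -0.165 to 0.098, Nfatc1 from -0.199 to 0.093, Nfatc2 from -0.193 to 0.545, Camk2d from -0.314 to 0.616 and Camk4 from -0.163 to 0.148. The lowest values of Stim1, Nfatc1, Nfatc2, Camk2d and Camk4 came without OX40-knockout 1 and the highest without OX40-knockout 2. Rcan1 was also positive without OX40-knockout 1 (0.035). With 2 libraries a group, the intervals in the report limit what could be seen.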
